A study of Homo sapiens with 24 samples.

Results

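The genes described here are the chemokines CXCL9, CXCL10 and CXCL11, their receptor CXCR3, the chemokine CCL5, the type I interferon IFNB1 and the type III interferons IL29 and IL28A. They were chosen by gene name, and every probe that carries one of these names on the arrays was taken, which gave 10 probes for 8 genes out of 27310 gene names found on both array designs. CXCL10 and CXCR3 have 2 probes each, and each of the other genes has 1. RNA from 7 established cancer cell lines was compared on 24 two-colour arrays, each with treated cells in Cy5 and control cells of the same line in Cy3. PC3, DU145 and LNCap are prostate cancer lines, A498 and 786O are renal cell carcinoma lines, and FaDu and SAS are head and neck squamous cell carcinoma lines.

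Of the 24 arrays, 12 compared a transfected miRNA with a control miRNA: miR-145 in PC3, DU145 and LNCap, miR-143 in PC3 and DU145, miR-27b in PC3, 786O and A498, miR-23b and miR-24 in PC3, miR-29a in SAS and miR-375 in FaDu. A further 6 compared an siRNA with a control siRNA, namely si-CAV2 in A498 and 786O, si-LAMB3 in FaDu and SAS, and si-GOLM1 in PC3 and DU145. Small molecules were given on 4 arrays, genistein to PC3 and DU145 against cells labelled as untreated (the methods of the study name the vehicle DMSO) and wogonin to SAS and FaDu against DMSO. The remaining 2 arrays compared 786O cells 12 h and 24 h after CXCL10 with untreated cells, and the labels do not give the form or the dose of the CXCL10. Each line and treatment has 1 array with no dye swap, so a difference between dyes and a difference between treatments cannot be told apart on a single array, and the labels do not say whether arrays of a line shared control RNA. The time after transfection, the controls' sequences and the arm of miR-145 are not given in the labels.

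CXCL9, CXCL10 and CXCL11 are small secreted proteins that attract activated T cells and natural killer cells through the receptor CXCR3. CCL5 draws T cells and monocytes through other receptors. IFNB1 signals through the type I interferon receptor, which nearly every cell carries, and IL29 (now IFNL1) and IL28A (now IFNL2) signal through the type III receptor, which is found mainly on epithelial cells. Cells make these interferons when sensors such as RIG-I, MDA5 or TLR3 meet double-stranded or viral RNA, through the transcription factors IRF3, IRF7 and NF-κB. Both receptors then activate transcription factors that switch on interferon-stimulated genes, CXCL10 among them.

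RefSeq promoter sequence (GRCh38.p14) was found for 7 of the 8 genes, all but CCL5. The stretches of 250 bases before the start of 6 of them are shown because these genes moved together in the data below, and because they let the reader see which regulatory letters they have in common. Each is written 5′ to 3′ on the strand of its gene, at chr4:76007510-76007759 (minus strand) for CXCL9, chr4:76023498-76023747 (minus) for CXCL10, chr4:76036071-76036320 (minus) for CXCL11, chr9:21077943-21078192 (minus) for IFNB1, chr19:39296157-39296406 (plus) for IL29 and chr19:39268146-39268395 (plus) for IL28A. Capitals mark matches, on either strand, to the core of an interferon regulatory factor site (AANNGAAA) or to the NF-κB consensus.
CXCL9: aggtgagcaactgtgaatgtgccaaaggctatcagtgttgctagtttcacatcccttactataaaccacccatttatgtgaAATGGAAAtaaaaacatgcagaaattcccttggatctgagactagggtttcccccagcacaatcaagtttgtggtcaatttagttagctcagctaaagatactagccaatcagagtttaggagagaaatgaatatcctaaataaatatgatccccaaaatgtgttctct
CXCL10: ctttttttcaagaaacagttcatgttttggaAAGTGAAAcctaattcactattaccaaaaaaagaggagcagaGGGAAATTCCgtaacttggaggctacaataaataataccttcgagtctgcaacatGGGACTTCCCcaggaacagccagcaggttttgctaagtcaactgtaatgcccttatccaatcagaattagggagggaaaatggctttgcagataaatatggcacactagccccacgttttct
CXCL11: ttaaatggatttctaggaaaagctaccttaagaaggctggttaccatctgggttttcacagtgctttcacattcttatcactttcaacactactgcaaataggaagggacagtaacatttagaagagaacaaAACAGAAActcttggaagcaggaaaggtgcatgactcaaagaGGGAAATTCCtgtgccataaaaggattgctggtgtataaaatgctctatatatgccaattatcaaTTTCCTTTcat
IFNB1: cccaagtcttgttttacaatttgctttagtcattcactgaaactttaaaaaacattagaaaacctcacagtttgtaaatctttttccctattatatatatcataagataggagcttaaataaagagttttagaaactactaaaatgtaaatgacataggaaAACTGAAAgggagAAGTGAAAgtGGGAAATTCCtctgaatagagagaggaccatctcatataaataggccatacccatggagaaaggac
IL29: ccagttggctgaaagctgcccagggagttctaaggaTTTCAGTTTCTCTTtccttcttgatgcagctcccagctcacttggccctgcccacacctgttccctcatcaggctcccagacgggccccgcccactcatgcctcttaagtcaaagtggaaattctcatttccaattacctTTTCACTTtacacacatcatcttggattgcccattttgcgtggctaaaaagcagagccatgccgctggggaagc
IL28A: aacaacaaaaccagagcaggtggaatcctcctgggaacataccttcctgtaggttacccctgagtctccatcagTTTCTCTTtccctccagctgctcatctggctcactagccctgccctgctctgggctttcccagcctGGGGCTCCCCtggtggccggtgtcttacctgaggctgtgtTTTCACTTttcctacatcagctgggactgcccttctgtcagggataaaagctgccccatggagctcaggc

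The IRF core was found in 1 copy in CXCL9 and CXCL10, in 2 copies in CXCL11, IFNB1 and IL28A, and in 3 copies in IL29, and it occurs in 20.3% of the 35114 promoters of the same length. The longer interferon-stimulated response element (a pair of GAAA with 2 bases between them), whose last 8 letters are the IRF core, was matched in CXCL9, CXCL10 and IL28A with 1 copy each and in IL29 with 2 overlapping copies, and in 3.02% of all promoters. NF-κB consensus matches numbered 2 in CXCL10 and 1 each in CXCL11, IFNB1 and IL28A, against 5.21% of all promoters. The GAS element (TTCNNNGAA) was matched in CXCL11 and IFNB1 with 1 copy each and in 6.57% of all promoters. None of the 4 motifs was matched in the stretch before CXCR3. A match shows letters, not binding, and no binding was measured. IL28A lies in a cluster of near copies. Over 300 bases, 250 before and 50 after the start, its promoter is the same as the first of the 2 listed for IFNL3 (IL28B) at 299 positions. The probe named IL28B also carries accessions of IL28A, so the IL28B signal may hold both. Whether the IL28A probe also reads IL28B was not tested.

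The miRNA that the data below turn on has 2 mature arms in RefSeq, from chromosome 5. They are shown with the seed, bases 2 to 8, in capitals, since the labels do not say which arm was transfected.
miR-145-5p: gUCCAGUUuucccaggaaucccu
miR-145-3p: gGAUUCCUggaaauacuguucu

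Several facts of the arrays bear on the values. In Cy3, the share of spots with a signal well over background ran from 53.0% to 67.6% between arrays, no spot was flagged as saturated, and the log ratio was exactly 0 for 154 of the 496 spots of the member probes, all with neither channel well above background. The knocked-down gene was lower on each siRNA array, with log2 ratios of −3.80 and −3.20 for CAV2 in A498 and 786O, −3.02 and −4.15 for GOLM1 in DU145 and PC3, and −2.50 and −0.89 for LAMB3 in FaDu and SAS. On the 22 arrays of other treatments LAMB3 ranged from −2.11 to 4.21, so its value in SAS lay within that range. The squamous marker KRT5 was above background in all 6 control channels of FaDu and SAS and in no other line, and the renal marker CDH6 in all 6 control channels of A498 and 786O and in 1 of PC3. Other markers were less specific to the labelled tissue. PAX8 was above background in all 7 control channels of PC3 and all 3 of FaDu. CA9 was so in 2 of 2 control channels of A498, 1 of 4 of 786O and 3 of 3 of SAS. NDUFA4L2 was not above background in any control channel of A498 or 786O. Of the leukocyte genes, CD68 and CD14 were above background in all 24 control channels and the T cell gene CD3E in 1. PTPRC was so in all control channels of PC3, DU145, 786O and LNCap, and in some of each other line. Whether immune cells were present was not tested.

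The DU145 miR-145 array stood apart. Its treated channel held signal of genes that were bright in LNCap and not above background in DU145 controls. The brighter probe of KLK3 (prostate-specific antigen) and the probe of HOXB13 were not above background in its control channel, but in the treated channel they were, with log2 ratios of 5.91 and 3.46. The other KLK3 probe was above background in both channels, at 0.56. Of 10 probes with a signal above 5000 in both LNCap channels and none above background in the 4 DU145 control channels, 9 were above background in the treated channel of this array, 0 in its control channel and 0 in the treated channels of the other 3 DU145 arrays. Their DU145 signal was a median 0.145% of that on the LNCap array (quartiles 0.133% and 0.174%). For the ligands and interferons the same percentage was 0.273% and 0.346% at the CXCL10 probes, 0.872% for CCL5, 1.55% for CXCL11, 4.12% for IFNB1, 4.38% for IL29 and 7.30% for IL28A. CXCL9 stood at 0.432% but was not above background. Hence all ligand and interferon probes above background lay over the share of the LNCap genes, the CXCL10 probes least so. For the ligand and interferon probes above background, the DU145 values below are also given with the median share of the LNCap signal taken off. Ranks, limma means and p-values, and the values of other genes, still include the share. That share ran from 0.0843% to 0.229% between the 10 probes, so fold bounds after this step hold at the median share only.

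**Figure D1:**
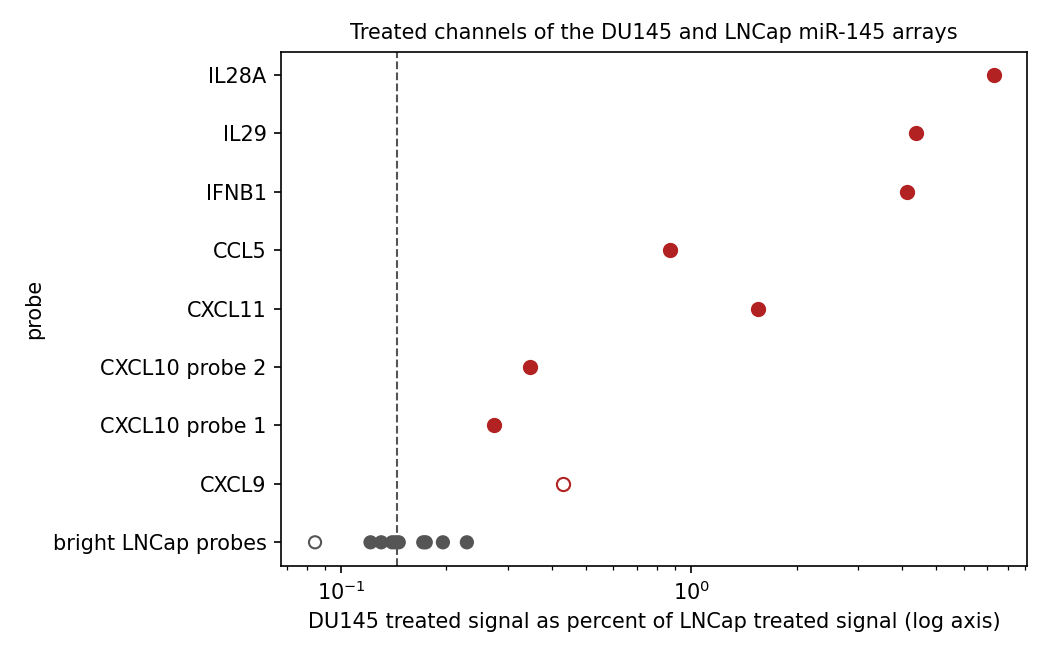
Treated signal on the DU145 miR-145 array as a percentage of the treated signal of the same probe on the LNCap miR-145 array (log axis), for 10 probes bright in LNCap and not above background in DU145 controls (grey) and for the ligand and interferon probes (red; CXCR3 is not drawn). Open circles were not well above background in DU145 and the dashed line is the median of the grey probes, 0.145%; the ligand and interferon probes lie to its right, from 0.273% for CXCL10 probe 1 to 7.30% for IL28A.

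The CXCR3 ligands and both kinds of interferon were far higher in miR-145-transfected cells than in control miRNA cells. CXCL10, the ligand that binds CXCR3 and is itself used as a treatment in the series, is measured by probe 1 (hg19, chr4:76942934-76942993) and probe 2 (chr4:76943520-76943579), both on the minus strand. In PC3 its probe 1 signal was 998 in control and 25805 in miR-145 cells, in LNCap 2225 and 68387, and in DU145 14.5, not above background, and 187. Probe 2 went from 53.8 to 24026 in PC3, from 247 to 62615 in LNCap and from 2.86, not above background, to 217 in DU145. The log2 ratios were thus 4.69, 3.69 and 4.94 at probe 1 and 8.80, 6.25 and 7.99 at probe 2 in PC3, DU145 and LNCap, and treated cells lay above controls on every array at both probes. In DU145, where the control was not measurable, probe 1 was 12.9-fold higher as measured, which is no lower bound. Probe 2 was at least 30.7-fold higher as measured. Both values include the LNCap share. With the median share taken off, 47.0% and 58.2% of the treated signal were left and the log2 ratios were 2.60 and 5.47. The ratio at probe 1 was then 6.08-fold and the bound at probe 2 was 17.9-fold. Both would be lower at the highest share among the LNCap genes, 0.229%.

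CXCL11 (chr4:76955615-76955674), the ligand with the highest affinity for CXCR3, followed. Its signal went from 93.8 to 22872 in PC3, from 128 to 23763 in LNCap and from 3.53, not above background, to 368 in DU145, or 7.93, 7.54 and 6.70 on the log2 scale. DU145 was at least 52.1-fold higher as measured. With the median LNCap share taken off, the bound was 47.2-fold and the log2 ratio was 6.56. CXCL9 (chr4:76922796-76922855), best known as a target of interferon gamma, was not above background in any control channel of the 24 arrays. It was measured only in the miR-145 cells of PC3, with a signal of 592, and of LNCap, with 908, which was at least 42.6-fold and at least 79.4-fold higher than control, and not in DU145. CCL5 (chr17:34199332-34199391) rose from 95.3 to 8057 in PC3, from 941 to 72984 in LNCap and from 25.4 to 637 in DU145, with log2 ratios of 6.40, 6.28 and 4.65, or 4.39 in DU145 without the LNCap share.

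IFNB1 (chr9:21077535-21077594) was among the largest differences on these arrays. Its signal went from 75.6 to 20538 in PC3, from 75.2 to 15459 in LNCap and from 6.04, not above background, to 637 in DU145, with log2 ratios of 8.09, 7.68 and 6.72. In DU145 it was at least 91.4-fold higher as measured. With the median LNCap share taken off, the bound was 88.2-fold and the log2 ratio was 6.67. Of the type III interferons, IL29 (chr19:39789091-39789150) went from 990 to 11961 in PC3, from 3094 to 38453 in LNCap and from 167 to 1682 in DU145, and its log2 ratios of 3.60, 3.64 and 3.34 were close to each other. IL28A (chr19:39760635-39760694) went from 1608 to 40610 in PC3, from 2182 to 62810 in LNCap and from 246 to 4584 in DU145, with 4.66, 4.85 and 4.22. The 2 type III interferons moved little without the LNCap share, to 3.29 and 4.19 in DU145. The receptor differed from its ligands. CXCR3 probe 2 (chrX:70836857-70836916) had log2 ratios of 1.04, 0.53 and −0.18 in PC3, DU145 and LNCap, and probe 1 (chrX:70835807-70835866) was not above background on any miR-145 array.

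**Figure D2:**
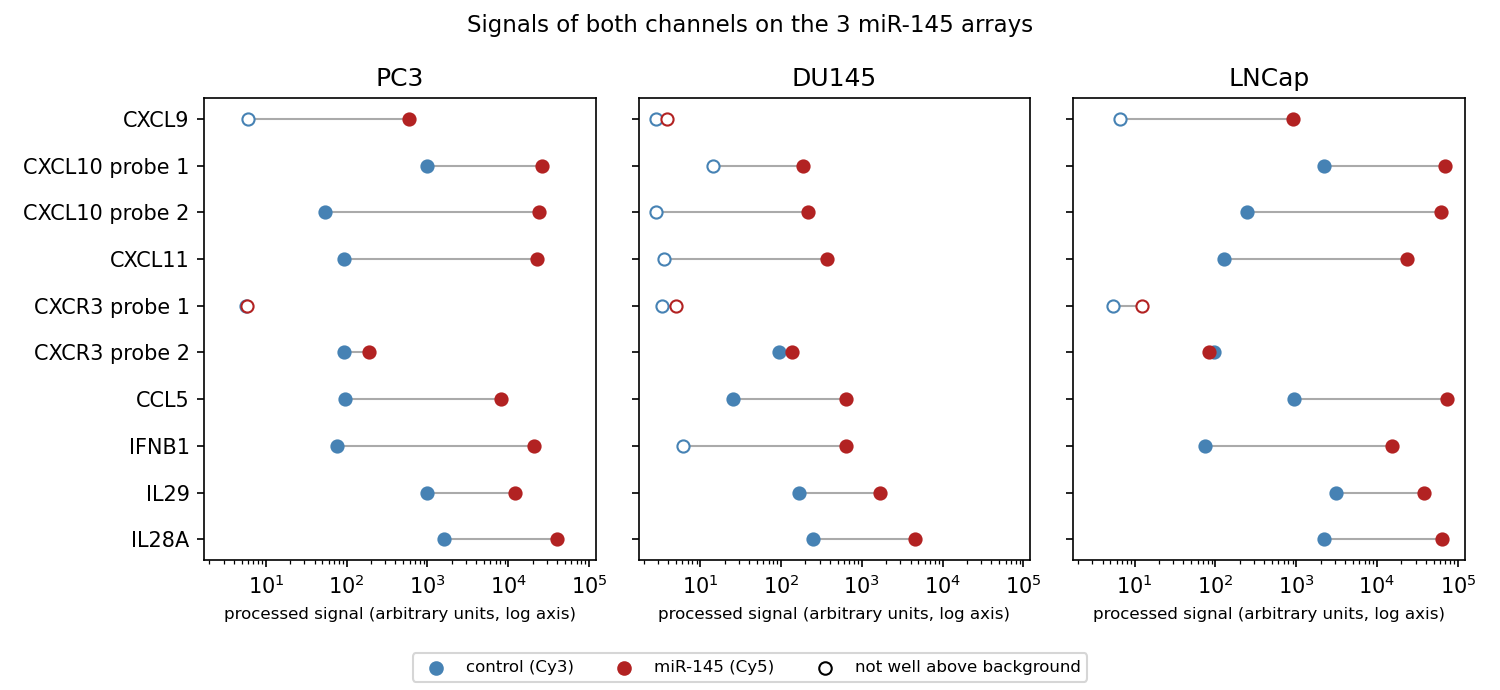
Processed signal (arbitrary units, log axis) of each member probe in control (blue, Cy3) and miR-145 (red, Cy5) cells on the PC3, DU145 and LNCap arrays, 1 array a line. Open circles were not well above background; treated signals of the ligands and interferons lie to the right of the controls in PC3 and LNCap, lower in DU145, and CXCL9 in DU145 and CXCR3 probe 1 were not measured.

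Of the 8 member probes above background in at least 1 channel on all 3 miR-145 arrays, 7 had a log2 ratio above 1 on all 3, against 320 (1.58%) of the 20271 probes measured there. By mean log2 ratio over the lines, CXCL10 probe 2 ranked 1, IFNB1 4, CXCL11 6, CCL5 20, IL28A 55, CXCL10 probe 1 58, IL29 99 and CXCR3 probe 2 2063 among those probes. These means include DU145 ratios whose controls were not above background for CXCL10, CXCL11 and IFNB1. Over PC3 and LNCap alone the ranks were 1 for CXCL10 probe 2, 5 for IFNB1 and 6 for CXCL11. In limma, with the mean of each treatment set against 0 and the spread shared over all arrays, the same 7 of 8 probes were higher after Benjamini-Hochberg adjustment, against 5.41% of the 25987 probes tested. The mean log2 ratio (SE, n = 3 lines) was 7.68 ± 0.68 at CXCL10 probe 2 (limma adjusted p = 7.92e-06), 7.50 ± 0.43 for IFNB1 (limma adjusted p = 1.32e-07) and 7.39 ± 0.35 for CXCL11 (limma adjusted p = 3.85e-08). It was 5.78 ± 0.34 for CCL5 (limma adjusted p = 1.58e-07), 4.57 ± 0.22 for IL28A (limma adjusted p = 3.85e-08), 4.44 ± 0.22 at CXCL10 probe 1 (limma adjusted p = 5.06e-08) and 3.52 ± 0.38 for IL29 (limma adjusted p = 5.31e-05). CXCR3 probe 2, at 0.46 ± 0.22, missed the limit (limma adjusted p = 0.205). Probes had to be above background on at least 6 arrays to be tested. CXCL11 (6 arrays) and both CXCL10 probes (8 each) met this only with the miR-145 arrays counted, so their results are a description. Without DU145 the 7 probes still passed, with means of 8.40 at CXCL10 probe 2, 7.74 for CXCL11 and 6.34 for CCL5. The replicates of this test are different lines on 1 slide. The SE and p-value of each treatment use a spread pooled over all treatments with at least 2 arrays (11 residual degrees of freedom). They do not measure the spread of the lines of that treatment alone.

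The control channel of the PC3 miR-145 array was itself high. There, the IL28A signal of the control miRNA cells was 1608, against 30.1 to 47.3 in the 4 other PC3 controls of the same array design, and IL29 was at 990 against 6.83 to 10.9. Further, CXCL10 probe 1 stood at 998 against 6.96 to 9.65 and CCL5 at 95.3 against 6.21 to 8.63. On the second design, the si-GOLM1 and miR-143 PC3 controls also held CXCL10 (probe 1 at 325 and 86.2), CCL5 (131 and 37.3) and IL29 (113 and 34.1). Signals were not scaled between the designs. In DU145, against the 1 other control of the first design, IL29 stood at 167 against 26.4 and IL28A at 246 against 62.9. There CCL5 was lower, at 25.4 against 116, and CXCL10, CXCL11 and IFNB1 were not above background in either. The miR-145 array is the only LNCap array analysed here, so it has no other control to set beside it. As a share of the treated signal, the control signal was 8.28%, 9.90% and 8.05% in PC3, DU145 and LNCap for IL29, and 3.96%, 5.37% and 3.47% for IL28A. For CCL5 it differed more between the lines, at 1.18%, 3.99% and 1.29%. The probes of CXCL10 did not share a value: 3.87%, 7.73% and 3.25% at probe 1 and 0.224%, 1.32% and 0.394% at probe 2, where the DU145 controls were not above background. The size of the CXCL10 difference therefore depends on the probe, while its direction does not. What gave this control signal was not tested.

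Other genes of the pathway are described from lists of known genes, chosen with earlier results of these data known. Their miR-145 means include the DU145 array with the LNCap share left in. Of all probes tested, 5.41% passed limma as higher after miR-145. All 10 interferon-stimulated genes passed limma as higher after miR-145, with a median log2 ratio of 5.39 against −0.05 over all probes tested. IFIT2 and IFIT3, which bind viral RNA, had 7.29 and 6.05, and RSAD2 (viperin, an antiviral enzyme) had 6.96. Among 12 RNA sensors and interferon inducers, 8 were higher and 0 lower, led by the cytosolic sensors RIGI (named DDX58 on the array, 5.77) and IFIH1 (MDA5, 5.0) and the endosomal sensor TLR3 (4.83). IRF7, the factor that amplifies interferon genes, had 3.32, while MAVS, TBK1, IRF3 and NFKB1 did not pass. Of 9 signal transducers, 7 were higher and 0 lower, with the feedback inhibitor USP18 at 4.28 and IRF9 at 3.40. The kinases JAK1 (0.40) and TYK2 (0.05) did not pass. The 6 receptor chains showed no common direction, with IFNGR1 higher at 0.57 and IFNAR1 lower at −0.73.

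Other interferons and genes of the chemokine axis were mostly too dim to test. At the IL28B probe, which may also read IL28A, the log2 ratios were 5.20 in PC3, 5.08 in DU145 and 4.95 in LNCap. The DU145 value includes the LNCap share. IFNW1, a type I interferon, had 6.10 in PC3 and 6.92 in LNCap and was not measured in DU145. Neither passed the filter on dim probes, and IFNG was not above background on these arrays. Of the 5 genes of this list that were tested, 0 passed in limma. Markers of other cell types did not move as lists: 0 of 4 prostate and 0 of 4 renal markers passed, and among squamous and leukocyte markers only KRT14 (3.64) and the lysosomal protein gene CD68 (2.19) were higher, of 4 and 5 tested. On the 3 arrays, the 6 leukocyte probes summed to 252 to 1142 in the control and 644 to 3333 in the treated channels. The lymphocyte genes CD3E, MS4A1 and NKG7 were not above background in most control channels. PTPRC, CD68 and CD14 were above background in most of them. The part of these markers in the result was not tested.

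**Figure D3:**
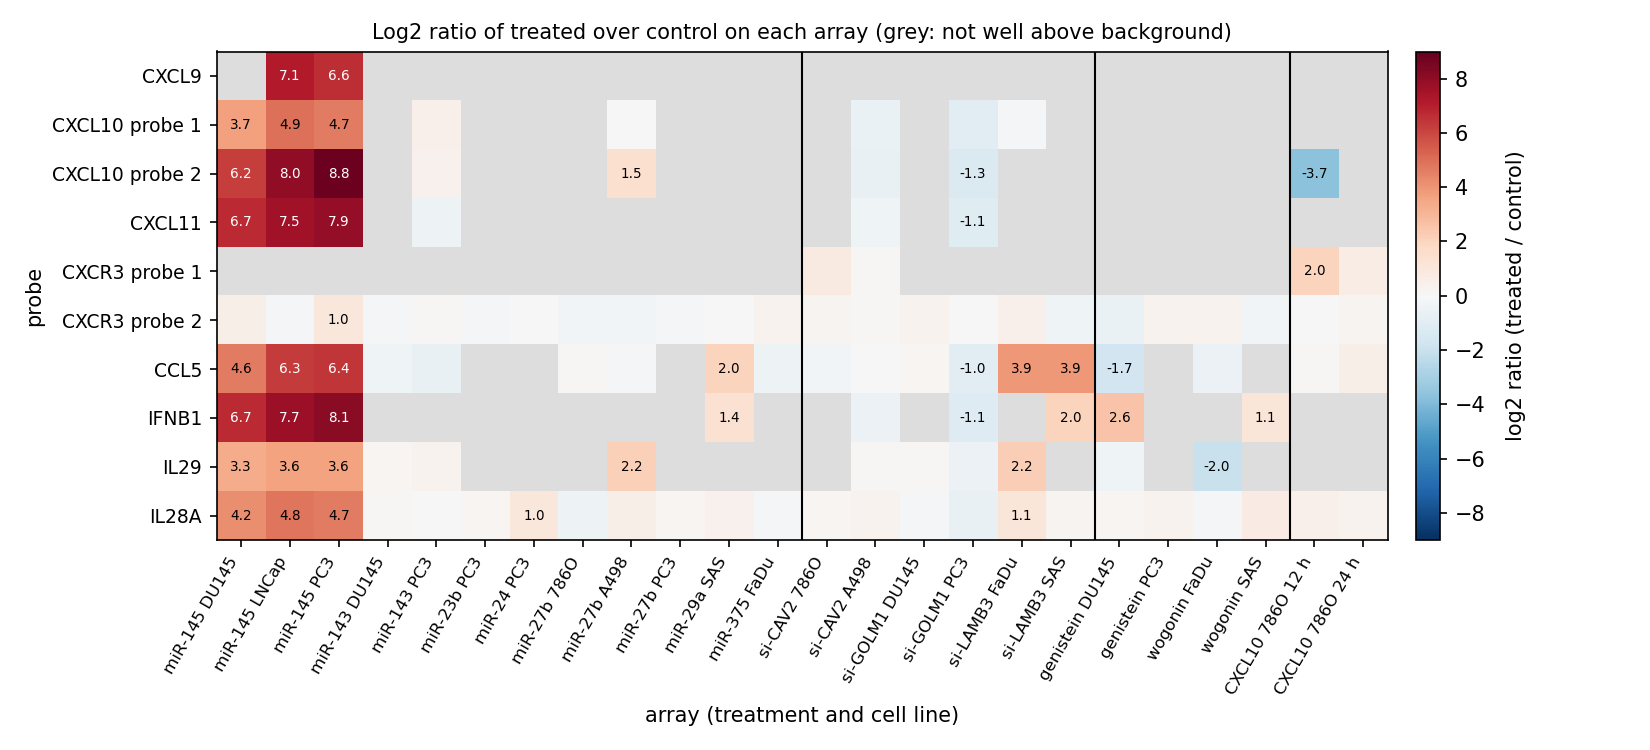
Log2 ratio of treated over control for each member probe (lines) on each of the 24 arrays (columns), grouped from left to right as miRNA, siRNA, compound and CXCL10 arrays. Grey cells were not well above background in either channel and values past 1 in size are printed; red fills the 3 miR-145 columns, except CXCL9 in DU145 and CXCR3, and elsewhere the printed values are few.

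On the 15 other transfection arrays the member probes were measured far less often. Of 67 values above background, 10 were past 1 (all values: 5.06%) and 4 were past −1 (all values: 4%). The clearest of these was CCL5 after si-LAMB3, in both squamous lines. In FaDu the CCL5 signal went from 26.2 to 392 (log2 ratio 3.90), and in SAS from 5.89, not above background, to 86.9 (3.88, at least 7.98-fold). In limma the mean was 3.89 ± 0.42 (SE, n = 2 lines; limma adjusted p = 1.08e-04), and 1 of the 8 member probes passed, that of CCL5, where 6.68% of all probes passed as higher. With normexp background correction in place of the scanner software's, the same mean was 1.35 (limma adjusted p = 0.0955). LAMB3 itself was at −2.50 in FaDu and −0.89 in SAS, as given above.

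Interferons also had values past 1 after si-LAMB3, though in different lines. In FaDu 3 member probes were past 1, against 6.38% of the probes above background. These were CCL5, IL29 at 2.19 (control not above background, 4.55-fold as measured) and IL28A at 1.09 (49.1 to 105). In SAS the IFNB1 signal went from 5.41, not above background, to 21.3, with a log2 ratio of 1.97 and at least 1.92-fold, while IL28A was at 0.22. The means over both lines were 1.21 for IL29 (limma adjusted p = 0.100), 0.99 for IFNB1 (limma adjusted p = 0.227) and 0.66 for IL28A (limma adjusted p = 0.114), and none of them passed. Of the 10 interferon-stimulated genes, 9 passed as higher with a median of 1.72, RSAD2 at 3.01 among them. Among all probes 6.68% passed as higher. Neither CXCL9 nor CXCL11 was above background in either line, and CXCL10 only in the treated channel of FaDu at probe 1, with a log2 ratio of −0.10.

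In SAS given miR-29a, CCL5 went from 7.08 to 28.3 and IFNB1 from 5.49 to 14.2, with controls not above background, which was at least 2.88-fold and at least 1.38-fold higher. After miR-27b in A498, IL29 went from 3.52, not above background, to 15.7 (2.15, at least 1.30-fold). On the same array the probes of CXCL10 disagreed, with 1.46 at probe 2, whose control was not above background, and 0.06 at probe 1. IL28A was at 1.04 after miR-24 in PC3, from 30.1, not above background, to 61.8. All these values are close to the background and rest on 1 array each.

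Values past −1 and above background after transfection were found on 1 array, si-GOLM1 in PC3. Its control cells expressed the genes: the signal went from 325 to 171 and from 341 to 140 at CXCL10 probes 1 and 2, from 209 to 98.6 for CXCL11, from 131 to 64.2 for CCL5 and from 186 to 116 for IL28A. The log2 ratios were −0.92, −1.28, −1.09, −1.03 and −0.68, with −0.53 for IL29 and −1.14 for IFNB1, whose treated signal was not above background. Thus 4 of the 8 measured probes were past −1, against 1.45% of all probes above background on the array. CXCR3 probe 2 was at 0.06. In DU145 the same siRNA left CCL5 at 0.18, IL28A at −0.09 and IL29 at 0.12, and in limma over both lines 0 of the 8 member probes passed.

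No member value above background was past 1 or −1 on the remaining transfection arrays. The largest was CXCR3 probe 1 after si-CAV2 in 786O, at 0.80 with a control not above background (1.74-fold as measured). With si-CAV2 in A498, which expressed the ligands, the log2 ratios were −0.61 and −0.65 at the CXCL10 probes, −0.37 for CXCL11, −0.49 for IFNB1 and −0.04 for CCL5. With miR-143 in PC3 they were 0.47 and 0.37 at the CXCL10 probes, −0.43 for CXCL11 and −0.64 for CCL5, and in DU145 CCL5 was at −0.40. Over the 7 treatments with at least 2 arrays other than miR-145 and si-LAMB3 (genistein, wogonin, CXCL10, miR-143, miR-27b, si-CAV2 and si-GOLM1), 0 of the 8 member probes passed limma, where 3.82% of all probes passed. At an unadjusted p under 0.05, 4 of these 56 values did, against 13.2% of the values of all probes.

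Among the compounds, 14 member values were above background, of which 2 were past 1 (all values: 8.27%) and 2 past −1 (all values: 5.55%). After genistein, a soy isoflavone, CCL5 in DU145 went from 116 to 35.0, a log2 ratio of −1.73, while IFNB1 went from 3.88, not above background, to 22.9, at least 2.82-fold higher. In PC3 only CXCR3 probe 2, at 0.31, and IL28A, at 0.29, were measured after genistein. After wogonin, a flavone, IL29 in FaDu went from 25.4 to 6.45, the latter not above background, which was 3.94-fold lower as measured. CCL5 in FaDu was at −0.54, and IFNB1 in SAS was at 1.11 with a control not above background. None of the means over 2 lines passed limma, CCL5 under genistein at −0.86 (limma adjusted p = 0.179) and IL29 under wogonin at −1.32 (limma adjusted p = 0.0988) included. Among the interferon-stimulated genes 17 of 38 measured compound values were past −1 and 2 were past 1.

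CXCL10 itself was given to 786O cells, which allowed the receptor and the ligands to be read 12 h and 24 h after it. Of 9 member values above background, 1 was past 1 (all values: 1.42%) and 1 past −1 (all values: 1.75%). CXCR3 probe 2 was at 0.04 and 0.26, from 56.1 to 57.7 in signal at 12 h. CXCR3 probe 1 went from 3.31 to 13.3 at 12 h and from 14.0 to 21.8 at 24 h, with controls not above background. It was at least 1.5-fold higher at 12 h, and 1.56-fold higher as measured at 24 h. CCL5 was at 0.10 and 0.55, and IL28A at 0.44 and 0.34. At CXCL10 probe 2 the control signal at 12 h was 252 and the treated signal 19.9, a log2 ratio of −3.66, but probe 1 was not above background on that array and neither probe was at 24 h, so this value was not borne out by the other probe of the gene. Of the 10 interferon-stimulated genes, 0 of 20 values were past 1 or −1.

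The transfections were next compared as a group with the compounds and CXCL10, 18 arrays against 6. In limma with array design as a covariate, 0 of 25987 probes (0%) passed, 3159 had an unadjusted p under 0.05, and 0 of the 8 member probes passed. The difference in log2 ratio, transfections minus the others, was 1.63 ± 0.93 (SE) for CCL5 (limma adjusted p = 0.479), 1.70 ± 1.23 at CXCL10 probe 2 (limma adjusted p = 0.588) and 1.15 ± 0.63 for IL29 (limma adjusted p = 0.460). Smaller differences were found for CXCL11 (1.09), IFNB1 (0.74), IL28A (0.62), CXCL10 probe 1 (0.57) and CXCR3 probe 2 (0.09). Each of these differences was lower without the 3 miR-145 arrays. They were then 0.79 for CCL5, 0.57 for IL29, 0.41 at CXCL10 probe 2 and 0.02 at CXCR3 probe 2. Below 0 were CXCL11 (−0.13), CXCL10 probe 1 (−0.20), IFNB1 (−0.45) and IL28A (−0.09). At CXCL10 probe 2, the 1.70 and the 0.41 both include the −3.66 at 12 h after CXCL10. With that array left out and miR-145 kept, the difference there was 1.27.

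Within array designs the differences of several probes turned. On the 16 arrays with the compounds the difference was 2.76 for CCL5, 1.82 for IL29, 1.99 for CXCL11 and 1.17 for IL28A. On the 8 arrays with CXCL10, which hold no miR-145 array, it was −0.64, −0.19, −0.72 and −0.49. CXCL10 probe 1 turned as well, from 1.15 to −0.60, and CXCR3 probe 2 from 0.22 to −0.16. IFNB1, at 1.04 and 0.15, and CXCL10 probe 2, at 1.73 and 1.64, kept their direction. The 1.64 rested on the −3.66 at 12 h after CXCL10, which the other probe did not bear out. At 24 h the ratio at CXCL10 probe 2 was 0.24, not above background. The mean size of the log2 ratio, whatever its direction, was compared for each of the 10 probes by an exact permutation test within array designs (two-sided, 50960 permutations, smallest possible p = 1.96e-05). No probe reached an exact p under 0.05. The lowest was 0.0599 for CXCL9 (mean size 1.46 in transfections, 0.21 in the others), a probe above background on 2 of the 24 arrays, so that nearly all its values are unmeasured signal, and for CCL5 the mean sizes were 1.68 and 0.48 (exact p = 0.204).

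**Figure D4:**
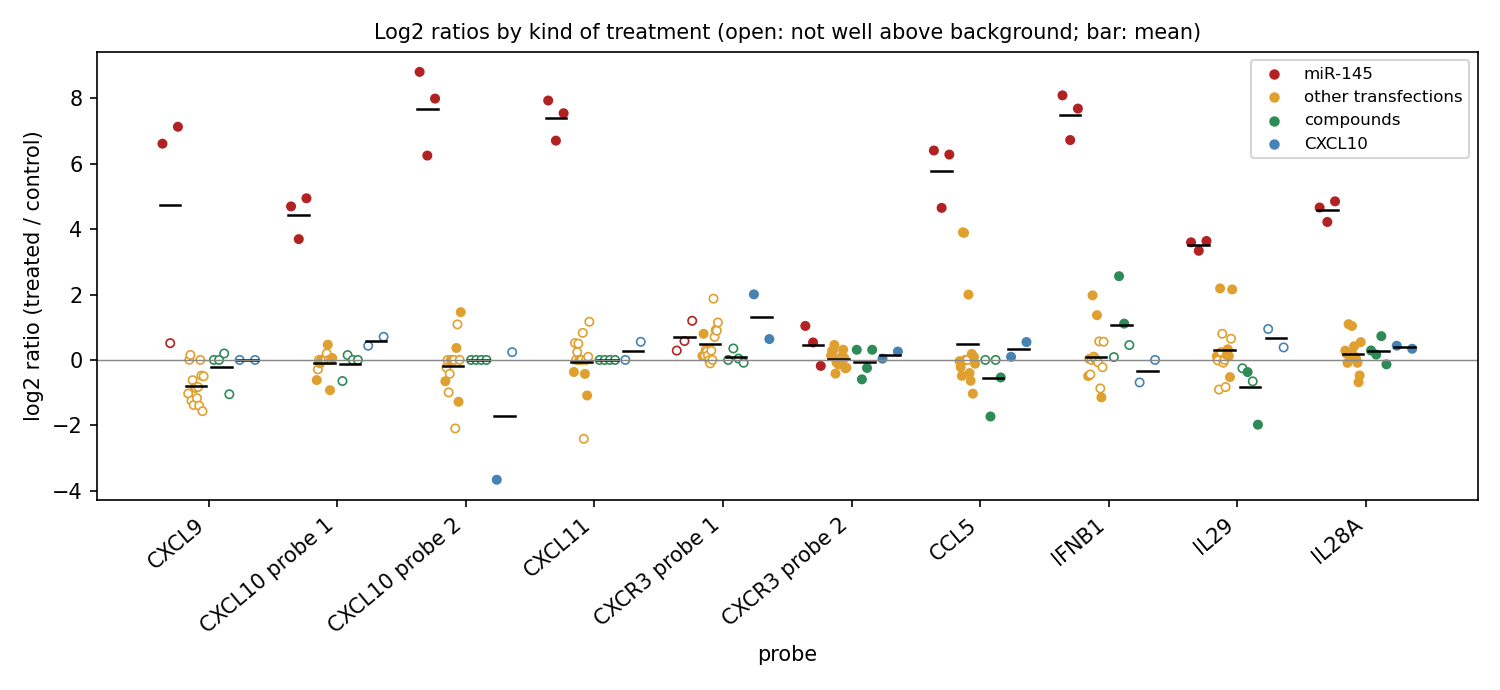
Log2 ratio of each member probe on each array, by kind of treatment: miR-145 (3 arrays), other transfections (15), compounds (4) and CXCL10 (2). Bars are means and open circles were not well above background; apart from CXCR3 and CXCL9 in DU145, the miR-145 points lie from 3.34 to 8.80, above the points of every other kind at the same probe, of which the highest was CCL5 after si-LAMB3 at 3.90.

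The control channels hold cells given a control miRNA, a control siRNA, DMSO or nothing, and show the levels of these genes in those controls. CCL5 was above background in all control channels of DU145 (4), 786O (4), FaDu (3), A498 (2) and LNCap (1), in 3 of 7 of PC3 and in 0 of 3 of SAS. On the 16 arrays of the first design, after scaling between arrays, its log2 level was 10.07 in A498 (1 array), 9.85 in LNCap (1), 6.89 in 786O (1), a median of 5.61 in DU145 (4.90 to 6.31), 5.27 in FaDu (4.91 to 6.61), 2.54 in SAS (2.35 to 3.19) and 2.47 in PC3 (2.30 to 6.46). The ranges of DU145 and FaDu overlapped, as did those of SAS and PC3, and the LNCap value and the highest PC3 value came from miR-145 arrays. IL28A was above background in 23 of 24 control channels. Its level was 11.09 in LNCap, 6.80 in DU145 (5.43 to 8.16), 6.18 in A498, 5.83 in FaDu (5.58 to 6.38), 5.41 in 786O, 5.28 in SAS (5.10 to 5.43) and 5.16 in PC3 (4.18 to 10.49), and LNCap lay above the rest. The LNCap value and the highest values of PC3 and DU145 came from miR-145 arrays. The range of PC3 spanned the levels of all lines but LNCap and that of DU145 those of A498 and FaDu, while SAS lay below FaDu with no overlap. CXCR3 probe 2 was above background in all 24 and was highest in SAS, at 8.82 (8.06 to 9.04). After scaling, this range did not overlap that of FaDu at 6.21 (5.99 to 6.23) or DU145 at 7.06 (6.81 to 7.31). With no scaling between arrays SAS (7.69 to 8.98) overlapped DU145 (6.58 to 7.82).

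The inducible members were found in fewer lines. CXCL10 was above background in the control channels of 3 of 7 PC3 arrays at both probes, in 2 of 2 A498 arrays at probe 1 and 1 of 2 at probe 2, in 1 of 4 786O arrays at probe 2 only, in LNCap, in 0 of 3 SAS and 0 of 3 FaDu arrays and in 0 of 4 DU145 arrays. CXCL11 was found in 3 of 7 PC3 arrays, 1 of 2 A498 arrays and LNCap, and IFNB1 in 2 of 7, 1 of 2 and LNCap. IL29 was above background in all 4 DU145 arrays, 3 of 7 PC3 arrays, 1 of 2 A498 arrays, 1 of 3 FaDu arrays and LNCap. Levels on arrays cannot tell fewer expressing cells from less RNA in each cell.

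Over the 24 arrays, the genes whose log2 ratios were most like those of a member were named for the 4 probes above background on at least 12 arrays, from 19448 probes. For IL28A these were IFIT5 (Pearson r = 0.96), PARP14 (0.95) and IFI6 (0.95), for CCL5 SLC15A3 (0.95), ZNFX1 (0.93) and APOL1 (0.93), and for IL29 IRF9 (0.88), LGALS9C (0.87) and XAF1 (0.87). CXCR3 probe 2 had lower values, with LY6E (0.80), CARD14 (0.75) and IQSEC2 (0.73). The arrays share lines and the 3 miR-145 arrays, which lie far from the rest, so these values are a description only.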

How the data were processed

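Total RNA was extracted with Trizol per the labels (the study's methods name a miRNeasy kit for the genistein arrays), labelled with Cy3 (control) and Cy5 (treated) and hybridised to Agilent arrays of 2 designs, 16 arrays of the first on 2 slides and 8 of the second on 1. Files deposited for each array came from the scanner software, which subtracts background and corrects for dye (Agilent Feature Extraction 10.7.3.1, per the submitters' processing notes). The deposited log ratio is on the log10 scale, Cy5 over Cy3, and was changed to log2. Deposited intensity values are processed and raw signals per spot, and the error of each log ratio is a deposited score from the software's model of 1 array. Member values in the authors' series matrix differed from the scanner output by 0. Probe positions are those of the files (hg19). Promoters and miRNAs are from RefSeq (GRCh38.p14), and coordinates of the builds were not mixed. No column of the authors' own comparisons was used.

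Spots flagged as outliers and control spots were dropped, and the mean over the spots of a probe was taken. A probe was called above background if a share of 0.5 or more of its spots had the software's flag for it. With 1 array for each line and treatment, single values were called by size, past 1 or −1 on the log2 scale and above background in at least 1 channel, with no test. Where only 1 channel was above background, a bound was computed: the brighter channel over the higher of the dim probe's signal and the lowest signal above background on that array, after scaling channels between arrays (Aquantile). Such bounds are open to dye bias. Probes above background on at least 6 arrays (25987 of 35605) entered limma 3.58.1 in R 4.3.3, with Benjamini-Hochberg adjustment over all of them and a limit of 0.05. CXCL9 and CXCR3 probe 1 did not pass this filter. CXCL11 and both CXCL10 probes passed it only with the miR-145 arrays counted. The test of each treatment against 0, the comparisons without miR-145 and the subtraction of the LNCap share were chosen after seeing the data. Permutation tests used Python 3.11.15, over 10 probes with no adjustment. limma and the permutation test were tested on simulated data. The depth of an array is not known, and the number of arrays limits the precision.

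The members and the gene lists (interferon receptors, signal transducers, RNA sensors and interferon inducers, other interferons and chemokine axis, interferon-stimulated genes, and prostate, renal, squamous and leukocyte markers) were chosen with earlier results of these data known. All 8 members are named with all probes, and of the lists the largest calls, with further genes named after their values were seen. Some genes of the lists are counted but not reported here by name. Likeness was the Pearson correlation of log2 ratios over the 24 arrays, with the 3 highest genes named for each member above background on at least 12 arrays. Alternatives were normexp (offset 50) with loess, median centring, other filters and limits, other covariates, 1 design at a time and leaving out arrays.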

Additional observations from a re-analysis of the deposited data

Results flagged for a closer look

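The log2 ratio of IL29 on the si-LAMB3 FaDu array, 2.19, lay far from the other 5 siRNA arrays, which ranged from −0.53 to 0.24. Its control signal was not above background. This was 1 of 11 pairs of a member probe and a group of arrays looked at, and chance gives such a value in about 1 in 20 groups. These arrays held different siRNAs and lines, so that rate need not hold here.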

How the results depend on the processing

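Most counts and values kept their direction and side of the limit. With normexp and loess, the calls past 1 and −1 were 1 and 0 for other transfections, 0 and 0 for compounds, and 0 past 1 for CXCL10, and si-LAMB3 had 0 member probes passing, CCL5 at 1.35 (limma adjusted p = 0.0955). At a limit of 0.5, the calls higher and lower were 12 and 10 for other transfections and 3 and 4 for compounds, and 3 CXCL10 values were higher. At 1.5 they were 6 and 0 for other transfections, and 1 compound value was higher. Requiring both channels above background left 3 member probes higher on all 3 miR-145 arrays, 2 values past 1 in other transfections, 0 in compounds and 0 in CXCL10, and 1 compound value past −1. With the filter at 12 arrays, 3 of 4 tested member probes passed for miR-145.

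In the comparison of transfections with compounds and CXCL10, the 16 arrays with compounds gave 16 probes, and leaving out an array of the compound or CXCL10 groups gave 0 to 19, with 7 without CXCL10 at 12 h and 19 without CXCL10 at 24 h, no member among them. On the 8 arrays with CXCL10 the differences reversed for CXCL10 probe 1 (−0.60), CXCL11 (−0.72), CXCR3 probe 2 (−0.16), CCL5 (−0.64), IL29 (−0.19) and IL28A (−0.49). Without the 3 miR-145 arrays they reversed for CXCL10 probe 1 (−0.20), CXCL11 (−0.13), IFNB1 (−0.45) and IL28A (−0.088). Without compound replicate 2 (genistein DU145), CXCR3 probe 2 was at −0.040, and from −0.040 to 0.16 over all arrays left out. For the size of the log2 ratio, 1 probe, CXCL9, had an exact p under 0.05 without compound replicate 4 (wogonin FaDu; difference 1.42, exact p = 0.0390) and without miR-145 (0.60, exact p = 0.0243), where it was not above background on any array, and 0 to 1 over all arrays left out. Without miR-145 the difference in size turned for CXCL10 probe 1 (−0.15), probe 2 (−0.077), IFNB1 (−0.29) and IL29 (−0.16). CXCR3 probe 1, at 0.022, turned to −0.0091 with median centring and −0.0071 without miR-145, and lay from −0.082 to 0.32 with each array left out. CXCR3 probe 2, at −0.035, lay from −0.086 to 0.025 with each array left out, the latter without genistein DU145. Control levels with no scaling between arrays were 9.88 in LNCap, 9.79 in A498 and 6.24 in 786O for CCL5, and 11.09 in LNCap, 5.84 in A498, 4.68 in 786O and 5.07 in SAS for IL28A. Unscaled, the ranges of SAS (7.69 to 8.98) and DU145 (6.58 to 7.82) overlapped for CXCR3 probe 2. The cause of these shifts was not tested.

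No paired analysis was possible because replicate numbers only name arrays and do not pair them. Lines recur across treatments, and with cell line as a random block (block correlation −0.0072) 0 probes passed. Ratios near the background and those with 1 channel above it depend on the background correction.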
